A study of Mus musculus with 10 samples.

Results

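Annexin and S100 transcripts were followed in the mouse hippocampus after subarachnoid hemorrhage (SAH). The genes were the annexins Anxa1, Anxa2, Anxa3, Anxa4 and Anxa5 and the S100 genes S100a4, S100a6, S100a10, S100a11 and S100a16. They were chosen by gene name, with earlier results of these data known, and made up 10 of the 24391 gene names counted. Numbers of genes called over this list therefore describe these 10 genes and not their families. RNA sequencing had been done on 1 library of whole bilateral hippocampus from each of 10 male mice, given as strain C56BL/6J and 10 to 14 weeks old. The study names no drug treatment of the groups, and surgery was done under isoflurane. Tissue was taken on day 4. In the 4 SAH mice (numbered 1 to 4) a filament had punctured the circle of Willis on one side, in the 3 Sham mice (5 to 7) the filament had been advanced without a puncture, and the 3 Naive mice (8 to 10) had no surgery. All mice were from 1 batch, and the SAH mice were those in which blood flow had dropped sharply at perforation, so they stand for that form of the injury. The 6 Sham and Naive mice together are called control.

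Annexins are calcium-dependent proteins that bind negatively charged phospholipids on the inner face of membranes, where they take part in vesicle fusion, membrane repair and the linking of membrane to actin. S100 proteins are small calcium sensors of the EF-hand type that work mostly as dimers, and several of them bind the tail of a given annexin, S100a10 that of Anxa2 and S100a11 that of Anxa1. In brain both families are known from glia, vessel walls, meninges and immune cells more than from neurons, and several members are used as markers of reactive or mesenchymal cells.

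Total counts per mouse were 19743388 to 27254655, and the groups overlapped in depth. Levels are given as CPM, which is a gene's count divided by the normalised library size, on 1 scale for all mice. Markers of neurons (Prox1, Neurod6, Rbfox3, Slc17a7, Snap25, Wfs1) summed to 4602 to 4877 CPM in every mouse, and Snap25 and Slc17a7 made up most of that sum. Single markers varied more: Prox1 ran from 48.5 CPM in Sham 5 to 84.4 in SAH 3, and Wfs1 from 120 in SAH 4 to 197 in Naive 9. Libraries SAH 3, SAH 4 and Sham 7 stood apart in 8 markers of choroid plexus epithelium, led by Ttr, which summed to 1236, 867 and 832 CPM against 44.3 to 217 in the other 7 mice.

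In SAH mice 7 of the 10 genes were higher than in control, 1 was lower and 2 did not pass the test. The genes that rose were Anxa1, Anxa2, Anxa3, Anxa4, S100a4, S100a6 and S100a11, by 1.28-fold to 1.72-fold. S100a16, the most abundant of the 10, fell to 0.838 of its control level. Anxa5 and S100a10 had fold changes of 1.08 and 1.10 and did not pass. A gene was called at an adjusted p under 0.10 in edgeR's quasi-likelihood test, the threshold of the study, with Benjamini-Hochberg adjustment over all 14993 genes tested. Over those genes 4.68% were called, 3.13% higher and 1.54% lower. The median log2 fold change of the 10 was 0.53, against -0.0024 over all genes tested. As the list was made with earlier results known, these values are a description of the 10 genes. In whole tissue, more cells of a type and more RNA per cell cannot be told apart.

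The calls were not equally firm. With each of the 10 mice left out in turn, Anxa2, Anxa4 and S100a6 were called in 10 of 10 fits and S100a16 in 8, while S100a4 was called in 4, Anxa3 and S100a11 in 2 each and Anxa1 in 0. Anxa1, Anxa3 and S100a11 had adjusted p-values between 0.0914 and 0.0986 with all mice, next to the threshold. Leaving out the 3 libraries of high choroid plexus level, a choice made after the data were seen, left 3 of the 10 genes called: Anxa2, S100a6 and S100a11, all higher. That setting kept only mice 1 and 2 of the SAH group, and 2.18% of all genes were called in it, against 4.68% with all mice. The effect of fewer mice and that of choroid plexus level cannot be told apart there. The 5 calls lost moved in both directions: the log2 fold change went from -0.25 to -0.15 for S100a16, from 0.78 to 0.60 for S100a4 and from 0.52 to 0.47 for Anxa4, and from 0.60 to 0.68 for Anxa1 and from 0.35 to 0.45 for Anxa3.

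**Figure D1:**
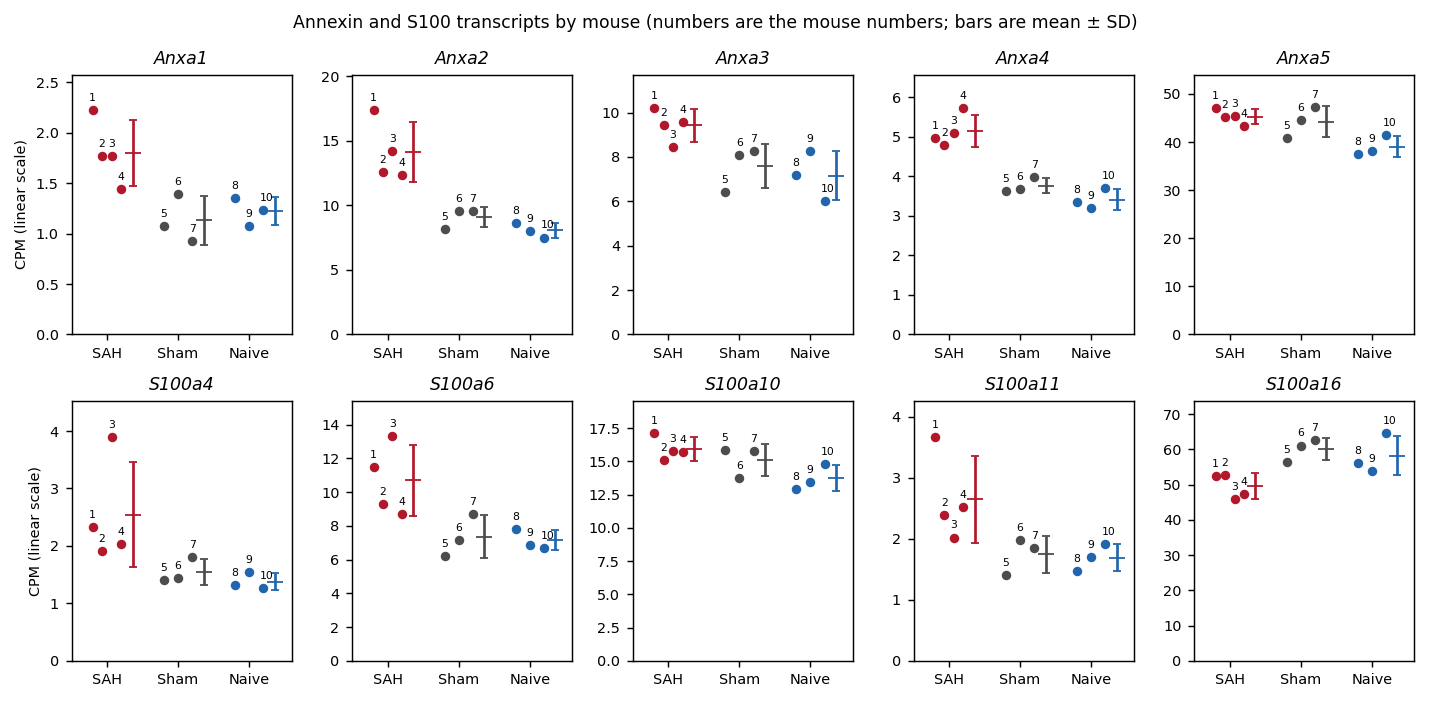
CPM (linear axis) of each of the 10 genes in each mouse, by group, with mouse numbers beside the points and bars for mean ± SD (SAH n = 4, Sham n = 3, Naive n = 3). For Anxa2 the 4 SAH mice lie between 12.4 and 17.4 CPM and the control mice between 7.51 and 9.60, while for Anxa5 and S100a10 the groups overlap and for S100a16 the SAH mice lie lowest.

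Promoters of the genes were read for short motifs, since 7 of the genes were called higher in SAH than in control mice. RefSeq windows of 300 bases, from 250 before to 50 after a start site, were matched for 8 of the 10 genes, 10 windows in all since Anxa4 and S100a16 had 2 each, and each window lay at 1 place in mm9, the build of the counts. All motifs were searched on both strands. The AP-1 motif (TGACTCA) was in 2 of the 10 windows, those of Anxa2 and S100a11, and in 5.20% of all 32851 windows. The SP1 motif (GGGCGG) was in 4 of the 10 and in 35.7% of all windows, the TEAD motif (GGAATG) in 1 and in 14.7%, and the STAT motif (TTCNNNGAA) in 0 and in 8.30%. A match is a description of these letters and not a binding site. The windows of the 2 genes with AP-1 matches are shown with that of S100a16, the gene that fell, in which SP1 was found and AP-1 was not. Capitals mark AP-1 and SP1 matches on either strand, the sequences run 5′ to 3′ on the gene's strand, which is the plus strand for all 3, and the letters are RefSeq's (GRCm38.p6) while the positions are the exact matches in mm9.
Anxa2, chr9:69301240-69301539: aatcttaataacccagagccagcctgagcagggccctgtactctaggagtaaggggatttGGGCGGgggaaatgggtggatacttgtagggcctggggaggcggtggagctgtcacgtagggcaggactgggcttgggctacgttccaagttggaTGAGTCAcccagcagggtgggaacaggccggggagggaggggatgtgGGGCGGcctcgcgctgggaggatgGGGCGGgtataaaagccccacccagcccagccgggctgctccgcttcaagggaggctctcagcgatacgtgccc
S100a11, chr3:93324168-93324467: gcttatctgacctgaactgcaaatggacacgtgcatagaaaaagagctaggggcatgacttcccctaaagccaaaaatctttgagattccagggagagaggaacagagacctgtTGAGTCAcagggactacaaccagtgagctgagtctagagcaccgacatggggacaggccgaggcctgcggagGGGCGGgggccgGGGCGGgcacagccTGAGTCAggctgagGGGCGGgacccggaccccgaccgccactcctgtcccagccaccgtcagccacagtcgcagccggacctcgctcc
S100a16, chr3:90344818-90345117: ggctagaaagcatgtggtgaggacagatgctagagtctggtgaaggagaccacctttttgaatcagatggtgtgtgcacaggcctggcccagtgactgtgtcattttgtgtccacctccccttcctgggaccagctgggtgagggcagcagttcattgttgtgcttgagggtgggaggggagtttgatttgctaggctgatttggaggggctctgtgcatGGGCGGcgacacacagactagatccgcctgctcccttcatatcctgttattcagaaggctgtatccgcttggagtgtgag
In Anxa2 the AP-1 match began at -95, counted from the start site, and in S100a11 a pair of matches began at -136 and -38. None of the 4 motifs was in 5 of the 10 windows, those of Anxa5, S100a4 and S100a6, the other window of S100a16 and 1 of the 2 windows of Anxa4. Anxa3 and S100a10 had no entry.

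Anxa2, the annexin that joins S100a10 in a complex at the cell surface which brings tissue plasminogen activator and plasminogen together, is on chromosome 9 (mm9, 69301490 to 69339592, plus strand) with 1374 exon bases. Its level was 17.4, 12.6, 14.2 and 12.4 CPM in SAH mice 1 to 4, 8.17, 9.60 and 9.53 in Sham mice 5 to 7 and 8.65, 8.02 and 7.51 in Naive mice 8 to 10. Every SAH mouse was above every control mouse, and mouse 1 was the highest. The mean was 14.2 ± 2.32 CPM in SAH (SD, n = 4) and 8.58 ± 0.844 in control (n = 6). That is 1.64-fold (95% interval 1.40 to 1.92, log2 0.71 ± 0.11 SE), with an adjusted p of 0.00375 in edgeR. Without 1 mouse at a time the log2 fold change stayed between 0.60 and 0.77. Anxa2 was the only one of the 10 called against Sham mice alone, at log2 0.63 (adjusted p = 0.0654 in edgeR), and it was also called against Naive mice, at log2 0.81 (adjusted p = 0.0081). The call against Sham was lost without any 1 of the 3 Sham mice, any 1 of the 3 Naive mice or SAH mouse 4, with adjusted p-values of 0.107 to 0.286.

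Anxa1 is the annexin that glucocorticoids induce and that dampens inflammation through formyl peptide receptors. It lies on chromosome 19 (20447924 to 20465161, minus strand) and was the least abundant of the 10. Its level was 2.22, 1.77, 1.77 and 1.44 CPM in SAH mice 1 to 4, 1.07, 1.40 and 0.925 in Sham mice 5 to 7 and 1.35, 1.08 and 1.23 in Naive mice 8 to 10. The groups did not overlap, but SAH mouse 4 and Sham mouse 6 were close, and these levels rest on 21 to 48 counts per mouse. The rise was 1.51-fold (interval 1.16 to 1.97, log2 0.60 ± 0.18 SE, adjusted p = 0.0978 in edgeR), and the adjusted p was 0.103 to 0.177 whichever mouse was left out. The receptors Fpr1 and Fpr2 had 0 to 5 counts in every mouse and were not tested.

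Anxa3, a phospholipid-binding annexin on chromosome 5 (97222404 to 97274987, plus strand), had the smallest rise that was called. Its level was 10.2, 9.45, 8.44 and 9.59 CPM in SAH mice 1 to 4, 6.44, 8.09 and 8.25 in Sham mice 5 to 7 and 7.18, 8.28 and 6.03 in Naive mice 8 to 10. SAH mouse 3 at 8.44 CPM lay just above Naive mouse 9 at 8.28. The rise was 1.28-fold (interval 1.09 to 1.49, log2 0.35 ± 0.10 SE, adjusted p = 0.0986 in edgeR). The call was kept only without SAH mouse 3 or Sham mouse 7, and leaving out any of the other 8 mice gave adjusted p-values of 0.110 to 0.206.

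Anxa4, an annexin best known from epithelial cells, is on chromosome 6 (86686834 to 86743578, minus strand). Its level was 4.98, 4.78, 5.10 and 5.72 CPM in SAH mice 1 to 4, 3.63, 3.68 and 3.98 in Sham mice 5 to 7 and 3.35, 3.19 and 3.69 in Naive mice 8 to 10. The SAH mice were closely grouped and all above control, and mouse 4 was the highest rather than mouse 1. The rise was 1.43-fold (interval 1.23 to 1.67, log2 0.52 ± 0.10 SE, adjusted p = 0.0152 in edgeR). Against Naive mice the log2 fold change was 0.59 (adjusted p = 0.0331), a call lost without Naive mouse 8 or 9 (adjusted p = 0.163 and 0.161), and against Sham mice it was 0.45 (adjusted p = 0.180). Without the 3 mice of high choroid plexus level both calls were lost, at log2 0.47 against control (adjusted p = 0.114) and 0.52 against Naive mice (adjusted p = 0.134).

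Anxa5, the annexin used to label phosphatidylserine on dying cells, is on chromosome 3 (36347846 to 36374809, minus strand) and was the most abundant of the 5 annexins. Its level was 47.0, 45.2, 45.5 and 43.2 CPM in SAH mice 1 to 4, 40.9, 44.6 and 47.3 in Sham mice 5 to 7 and 37.6, 38.1 and 41.5 in Naive mice 8 to 10. Sham mouse 7 was above every SAH mouse, whereas the Naive mice were all below. The fold change was 1.08 (interval 0.986 to 1.19, adjusted p = 0.377 in edgeR). Between Sham and Naive mice its log2 fold change was 0.18 ± 0.07 SE, the one value among the 10 genes with an unadjusted p under 0.05 in that comparison (adjusted p = 1.00 in edgeR).

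**Figure D2:**
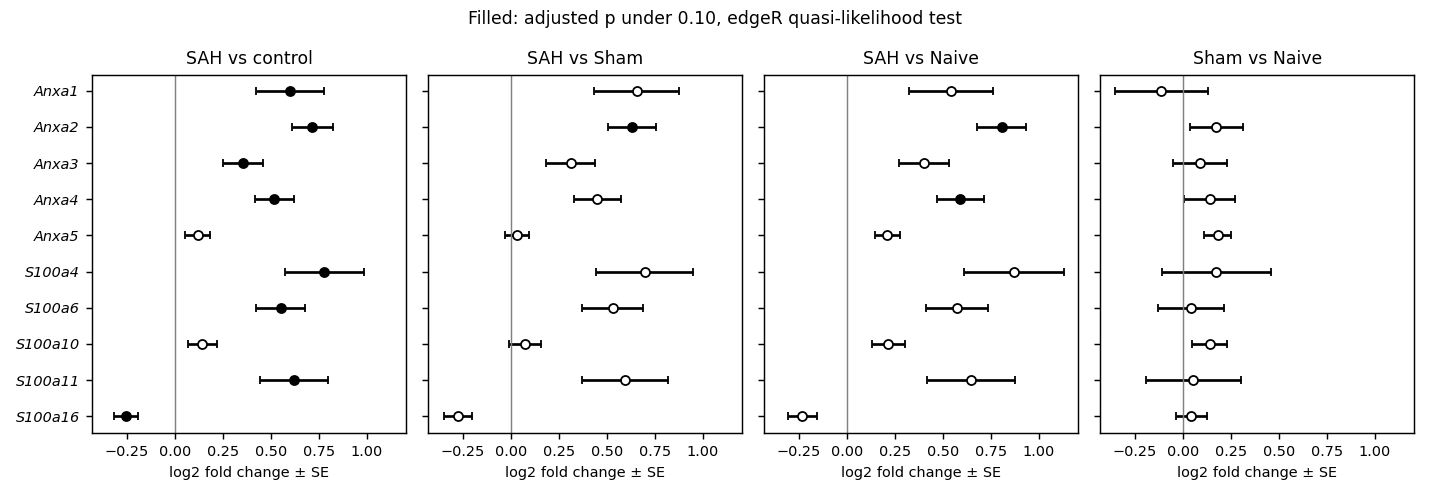
Log2 fold change ± SE of the 10 genes in 4 comparisons, with filled points for an adjusted p under 0.10. In SAH against control 8 points are filled, against Sham alone 1, against Naive alone 2 and in Sham against Naive 0, although the points of the first 3 panels lie at similar places.

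The 5 S100 genes followed here all lie on chromosome 3, in a pair of stretches. In mm9 12 S100 genes lay within 184.7 kb (90314956 to 90499643), and S100a11 and S100a10 followed 2824.8 kb further on in 44.1 kb. S100a16, which fell, began 30.2 kb from the first base of S100a1, and S100a4 and S100a6, which rose, began at 92.7 and 101.9 kb. Their neighbours S100a1 and S100a13 were tested and not called, with log2 fold changes of 0.12 and 0.08. S100a3 and S100a5, which lie on either side of S100a4, had 0 to 6 counts per mouse and were not tested.

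**Figure D3:**
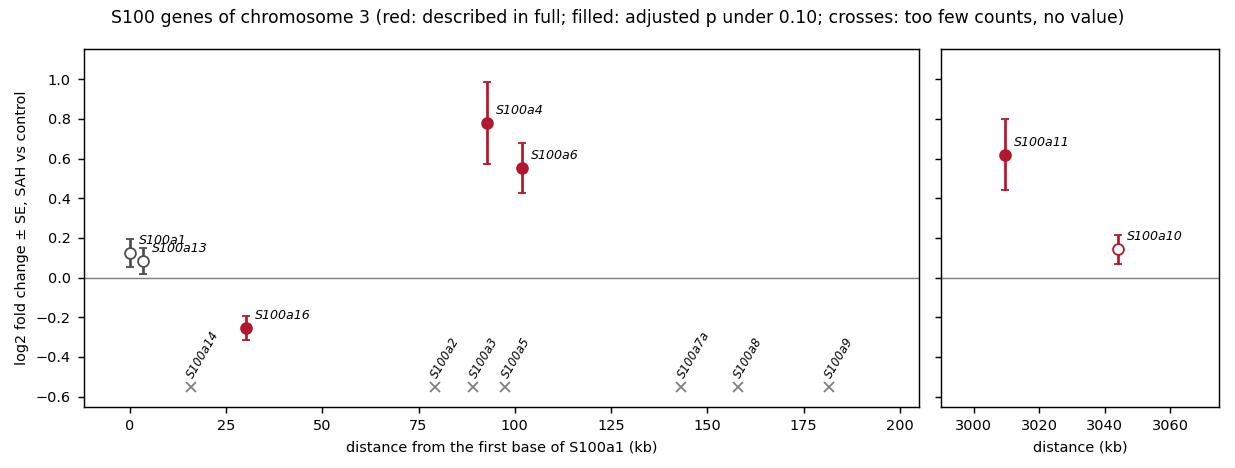
Log2 fold change ± SE of SAH against control for the S100 genes of chromosome 3 by distance in kb from the first base of S100a1, with a break before S100a11. Filled points have an adjusted p under 0.10, crosses mark genes with too few counts for a test, and the 1 filled point below 0 is S100a16.

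S100a4, an S100 protein known from fibroblasts and migrating cells that binds non-muscle myosin, spans 90407692 to 90409967 on the plus strand and had the largest fold change of the 10. Its level was 2.32, 1.91, 3.89 and 2.04 CPM in SAH mice 1 to 4, 1.40, 1.43 and 1.81 in Sham mice 5 to 7 and 1.32, 1.54 and 1.27 in Naive mice 8 to 10. SAH mouse 3 was far above the other SAH mice, of which mouse 2 at 1.91 CPM was only just above Sham mouse 7. The rise was 1.72-fold (interval 1.26 to 2.33, log2 0.78 ± 0.21 SE, adjusted p = 0.0652 in edgeR). It shrank to log2 0.51 (adjusted p = 0.155) with SAH mouse 3 left out. Leaving out Sham mouse 5, Sham mouse 6 or any single Naive mouse also ended the call, with adjusted p-values of 0.112 to 0.147 and log2 fold changes of 0.74 to 0.79.

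S100a6, also called calcyclin, is an S100 protein of proliferating and mesenchymal cells and lies next but one to S100a4 (90416816 to 90418336, plus strand). Its level was 11.5, 9.31, 13.3 and 8.67 CPM in SAH mice 1 to 4, 6.23, 7.13 and 8.73 in Sham mice 5 to 7 and 7.82, 6.89 and 6.71 in Naive mice 8 to 10. The groups overlapped by 1 mouse, as Sham mouse 7 was just above SAH mouse 4. The rise was 1.47-fold (interval 1.21 to 1.77, log2 0.55 ± 0.13 SE, adjusted p = 0.0362 in edgeR), and the call was kept in every fit without 1 mouse, with adjusted p-values of 0.0259 to 0.0870. Without the 3 mice of high choroid plexus level, of which SAH 4 and Sham 7 made the overlap, the log2 fold change was 0.57 (adjusted p = 0.0176).

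S100a11, the S100 protein that binds Anxa1, spans 93324418 to 93330210. Its level was 3.68, 2.39, 2.02 and 2.52 CPM in SAH mice 1 to 4, 1.40, 1.99 and 1.85 in Sham mice 5 to 7 and 1.47, 1.70 and 1.91 in Naive mice 8 to 10. Mouse 1 stood above the other SAH mice, and SAH mouse 3 was just above Sham mouse 6. The rise was 1.54-fold (interval 1.18 to 2.01, log2 0.62 ± 0.18 SE, adjusted p = 0.0914 in edgeR). The call was kept only without SAH mouse 2 or 3, and with SAH mouse 1 left out the rise was 0.43 on the log2 scale (adjusted p = 0.179). The count of S100a11 is uncertain for another reason: 99.8% of its 504 exon bases align at 96% identity or more to 2 other places in the genome, and 49.2% and 59.1% of its 50-base windows are identical there, so reads from them can map to several places, and such reads were not counted. How many read pairs were lost was not tested. None of the exon bases of the other 9 genes had such a copy.

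S100a16, a widely expressed S100 protein that is abundant in brain, spans 90345145 to 90347073. Its level was 52.5, 52.7, 45.8 and 47.2 CPM in SAH mice 1 to 4, 56.5, 61.1 and 62.5 in Sham mice 5 to 7 and 56.1, 53.9 and 64.6 in Naive mice 8 to 10. Every SAH mouse was below every control mouse, with SAH mouse 2 and Naive mouse 9 the closest. The mean was 49.6 ± 3.57 CPM in SAH (SD, n = 4) and 59.1 ± 4.20 in control (n = 6), a ratio of 0.838 (interval 0.764 to 0.920, log2 -0.25 ± 0.06 SE, adjusted p = 0.0481 in edgeR). The call was lost without Naive mouse 10 (adjusted p = 0.105), without SAH mouse 4 (0.148) and without the 3 mice of high choroid plexus level (log2 -0.15, adjusted p = 0.455).

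S100a10 is the partner of Anxa2, and unlike most S100 proteins it no longer binds calcium. It lies beyond S100a11 (93359039 to 93368567, plus strand). Its level was 17.2, 15.1, 15.8 and 15.7 CPM in SAH mice 1 to 4, 15.9, 13.8 and 15.8 in Sham mice 5 to 7 and 12.9, 13.4 and 14.8 in Naive mice 8 to 10. SAH mice 2 to 4 lay among the Sham mice, mouse 1 was above them, and every SAH mouse was above every Naive mouse. The fold change was 1.10 (interval 0.988 to 1.23, adjusted p = 0.356 in edgeR).

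How far Anxa2 and S100a10, which form 1 complex, moved apart can be given as a ratio. Levels per length (FPKM, CPM per kb of exon) allow genes to be compared. Anxa2 per S100a10 was 0.480, 0.396, 0.426 and 0.372 in SAH mice 1 to 4, 0.243, 0.330 and 0.286 in Sham mice 5 to 7 and 0.316, 0.283 and 0.240 in Naive mice 8 to 10. S100a10 transcript was in excess in all 10 mice, and the ratio was higher in every SAH mouse than in any control mouse. The mean ratio was 0.418 ± 0.0465 in SAH (SD, n = 4) and 0.283 ± 0.0368 in control (n = 6). The log2 difference was 0.57 against control, 0.55 against Sham and 0.58 against Naive mice, and 0.03 between Sham and Naive mice. This ratio was chosen after the values were seen and is given as a description, with no test.

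The 10 genes spanned a wide range of levels per length. In control mice the order was S100a16 at 55.7 ± 3.96 FPKM (SD, n = 6), Anxa5 at 24.2 ± 2.18, S100a10 at 22.2 ± 1.92, S100a6 at 10.1 ± 1.24, Anxa2 at 6.25 ± 0.614, Anxa3 at 4.62 ± 0.615, S100a11 at 3.41 ± 0.477, S100a4 at 2.93 ± 0.389, Anxa4 at 1.79 ± 0.140 and Anxa1 at 0.844 ± 0.131. Neighbours in this order overlapped over the control mice for Anxa5 and S100a10, for Anxa3 and S100a11 and for S100a11 and S100a4. The other neighbours did not overlap. The place of S100a11 is uncertain, since reads that map to its copies as well were not counted, and its level may be too low. The 3 most abundant genes were the one that fell and the 2 that did not pass the test.

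**Figure D4:**
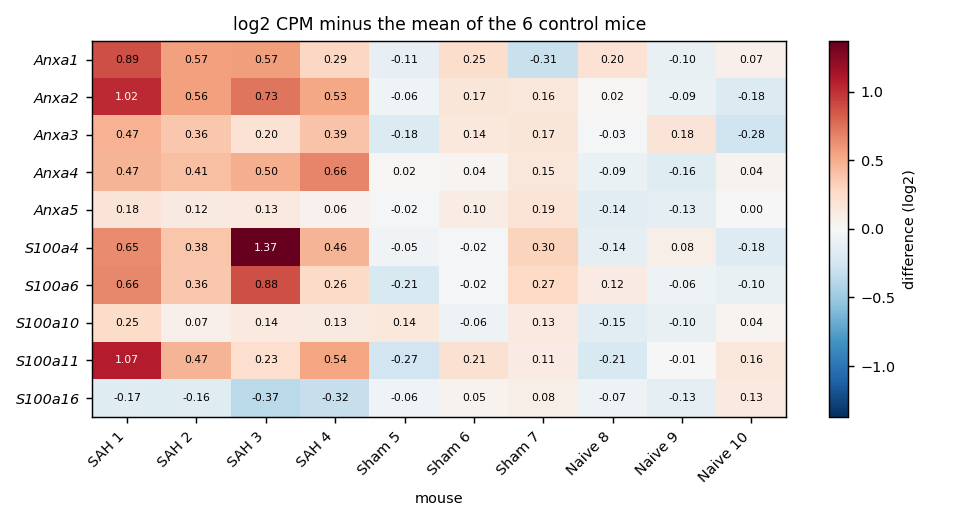
Log2 CPM of each of the 10 genes in each mouse minus the mean of the 6 control mice. SAH mouse 1 has the highest value of the SAH mice for 6 genes, SAH mouse 3 for S100a4 and S100a6, and the row of S100a16 is below 0 in all 4 SAH mice.

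The SAH mice did not share one order. Mouse 1 was the highest SAH mouse for 6 genes (Anxa1, Anxa2, Anxa3, Anxa5, S100a10 and S100a11), mouse 3 for S100a4 and S100a6, mouse 4 for Anxa4 and mouse 2 for S100a16. By the root mean square difference of log2 CPM over the 10 mice, each gene centred on its control mean, the pairs of genes most alike were Anxa5 with S100a10 (0.0866), Anxa2 with S100a6 (0.184), S100a4 with S100a6 (0.199) and Anxa1 with Anxa2 (0.207). By the same measure over 14983 other genes, the nearest to Anxa2 were Foxc1 (0.134), a transcription factor of meninges and vessels, Dab2 (0.139), an endocytic adaptor, and Lgals1 (0.142), a galectin. The nearest to Anxa4 were Ifi27 (0.0564), an interferon-induced gene, Ctsc (0.0657), a lysosomal protease, and Efna1 (0.0829), an ephrin. The nearest to S100a4 were Flnc (0.142), Hmox1 (0.147), the heme-degrading oxygenase, and Id1 (0.173). Those of S100a6 were Slc26a2 (0.131), Mxra8 (0.142) and Tspan4 (0.154), those of S100a11 Cbr2 (0.170), Cxcl16 (0.181) and Islr (0.200), and those of Anxa1 P2rx1 (0.150), Slc26a2 (0.197) and Tmem140 (0.198). Those of Anxa3 were 9530082P21Rik (0.112), Klk8 (0.127) and Alpl (0.128). S100a16 was nearest to Sept4 (0.0669), Pogk (0.0709) and Tusc1 (0.0718). All 10 mice and the centring on control enter every such distance, which is given as a description.

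Against Sham mice alone the 10 genes had log2 fold changes with a median of 0.49, and 1 was called (background 0.720% of 15134 genes). With Naive mice as the comparison the median was 0.56 and 2 were called (background 2.99%). The SAH mice are shared by both comparisons. By position alone, 6 genes were higher and 1 was lower in every SAH than in every Sham mouse, where 5.03% and 4.45% of all genes were. In SAH against Naive mice 9 were higher and 1 was lower without overlap, against 7.04% and 6.75% of all genes, Anxa5 and S100a10 among the 9. Against the pooled control mice 6 were higher and 1 lower without overlap, where the shares of all genes were 2.83% and 2.37%. In Sham against Naive mice 0 of the 10 were called in edgeR, with 1 at an unadjusted p under 0.05 and 0 called by DESeq2, and 0.00661% of all genes were called. Their log2 fold changes there ran from -0.11 for Anxa1 to 0.18 for Anxa5, with a median of 0.11, and 0 genes separated without overlap (background 8.99%).

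**Figure D5:**
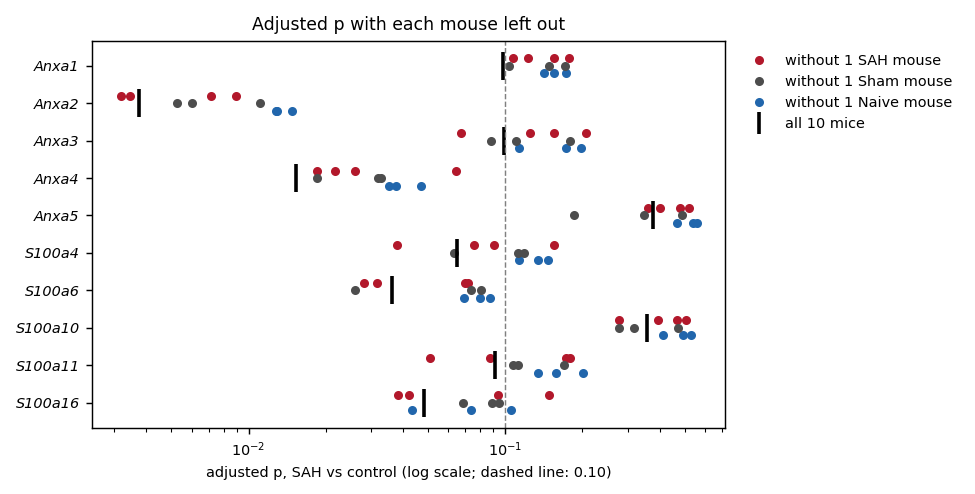
Adjusted p of SAH against control (log axis) for each gene with all 10 mice (bar) and with 1 mouse left out (points, coloured by the group of that mouse), with the threshold of 0.10 dashed. All points of Anxa2, Anxa4 and S100a6 lie left of the line, and all those of Anxa1, Anxa5 and S100a10 lie right of it.

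Other genes of the same families mostly had few counts or small differences. Of 7 other annexins 5 were tested and 0 were called by edgeR (1 at an unadjusted p under 0.05, and 1 called by DESeq2). That one was Anxa11, an annexin of RNA granule transport, with 40.7, 36.7, 50.1 and 43.2 CPM in SAH mice 1 to 4 and 30.0 to 40.1 in control, a log2 fold change of 0.30 ± 0.09 SE and an adjusted p of 0.101 in edgeR. It is named after its values were seen. Of 12 other S100 genes 3 were tested and 0 were called (0 at an unadjusted p under 0.05, and 0 by DESeq2). S100b, the S100 protein of astrocytes and oligodendrocytes, had the highest CPM of the S100 genes, at 109 ± 5.48 CPM in SAH (SD, n = 4) and 109 ± 4.73 in control (n = 6), with a log2 fold change of 0.00 ± 0.04 SE. S100a8 and S100a9, the calprotectin subunits of neutrophils, had few counts, 4 to 12 after SAH and 0 to 12 among controls, and did not pass the filter on low counts. Without the filter neither was called. S100g and S100z had 0 counts in every mouse.

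Among 22 genes whose products bind or act with annexins and S100 proteins, 21 were counted, 18 were tested, 2 were higher and 0 were lower, where 3.13% and 1.54% of all genes were, and 6 had an unadjusted p under 0.05. The 2 were Ahnak and Myof. Ahnak, a very large scaffold protein that the Anxa2 and S100a10 complex holds at the membrane, was at 34.8, 31.4, 53.7 and 43.8 CPM in SAH mice 1 to 4 and at 19.8 to 24.7 in control, a rise of 1.79-fold (log2 0.84 ± 0.13 SE, adjusted p = 0.00375 in edgeR). Myof, or myoferlin, which takes part in membrane repair, was at 10.4, 10.3, 10.1 and 11.7 CPM in SAH mice and at 6.27 to 8.96 in control (1.46-fold, log2 0.55 ± 0.10 SE, adjusted p = 0.0121). Both were called in 10 of 10 fits without 1 mouse. Plat, the tissue plasminogen activator that the complex binds, was not called (log2 0.13 ± 0.14 SE, adjusted p = 0.675 in edgeR), and its sign turned without SAH mouse 3, which had 68.0 CPM against 34.6 to 44.4 in the other SAH mice (log2 -0.10 without it). Plaur, the urokinase receptor, had a larger value on only 3 to 20 counts per mouse, log2 0.91 ± 0.38 SE against control (adjusted p = 0.238 in edgeR) and 1.41 ± 0.45 SE against Sham mice (adjusted p = 0.281), where the groups did not overlap. Against Naive mice, where the groups overlapped, it was 0.52 ± 0.41 SE (adjusted p = 0.588), and the value against control was 0.60 without SAH mouse 3.

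Markers of several cell types also differed between SAH and control mice, and their part in the results was not tested. Over all genes tested 3.13% were called higher and 1.54% lower against control. Of 8 markers of meningeal fibroblasts 7 were higher in SAH mice, and the 8 summed to 197 to 364 CPM there and to 145 to 186 in control. Their sum was highest in SAH mouse 1 and lowest in SAH mouse 3, the SAH mouse that was highest for S100a4 and S100a6. Of 6 markers of border macrophages 5 were higher, with 17.7 to 22.1 CPM in SAH, 9.66 to 11.3 in Sham and 6.17 to 7.15 in Naive mice. Also higher were 3 of 7 endothelial and 3 of 7 mural markers. Between Sham and Naive mice 0 border macrophage and 0 meningeal fibroblast markers were called. Yet 4 of 6 and 4 of 8 were higher in every Sham than in every Naive mouse, where 8.99% of all genes separated in either direction. Of 6 oligodendrocyte markers 6 were lower, with 4394 to 5621 CPM in SAH and 6453 to 8994 in control, in the direction of S100a16. Astrocytes had 1 of 6 higher (Gfap), and neurons and ependymal cells 0 of 6 each. Of the 8 choroid plexus markers 0 were called against control (3 at an unadjusted p under 0.05 in edgeR), although all 8 log2 fold changes were above 0 with a median of 1.28. Against Naive mice 2 were higher (Ttr and Kcnj13) with a median of 2.55, where 2.99% of all genes were called. Between Sham and Naive mice 0 of the 8 were called, with 5 at an unadjusted p under 0.05 in edgeR and a median of 1.98. Markers of monocytes and neutrophils summed to 0.606 to 1.98 CPM in SAH and 0.263 to 0.699 in control, those of T and NK cells to at most 0.200 CPM, and neither list had a member with enough counts to test against control. In the fit of 3 groups Ccr2, the chemokine receptor of monocytes, passed the filter, but only through SAH mice. It had 32, 24, 2 and 17 counts in SAH mice 1 to 4 and 1 to 6 in control mice. Its log2 fold change was 2.32 against Sham (adjusted p = 0.217 in edgeR) and 2.60 against Naive mice (adjusted p = 0.103). The filter favours a positive value here, so these are not read as a result. Of 5 erythrocyte genes, the globins Hbb-b1, Hbb-b2, Hba-a1 and Hba-a2 had 0 counts in every mouse. Hba-a1 and Hba-a2 overlap in the annotation, and reads falling on several genes or places were not counted. Hbb-b1 and Hbb-b2 do not overlap each other, and the cause of their zeros was not tested. None of these zeros is read as a measure of blood. Alas2, the heme synthesis enzyme of red cells, had a log2 fold change of 0.36 ± 0.28 SE (adjusted p = 0.546 in edgeR).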

How the data were processed

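RNA integrity numbers were above the study's limit, ribosomal RNA was depleted and stranded libraries were sequenced as 50-base read pairs. Per the methods, the authors aligned the pairs with STAR to mm9 and counted pairs on exons by gene name with featureCounts 1.6.2 (stranded), leaving out reads that mapped to several places. The deposited values are raw counts. From them, TMM normalization, filterByExpr (minimum count 10, minimum total 15) and quasi-likelihood tests were run in edgeR 4.0.16, with SAH against pooled Sham and Naive mice in a fit of 2 groups and the other comparisons in a fit of 3 groups. CPM used TMM library sizes, and log2 CPM a prior count of 2. Reported SE is the log2 fold change divided by the root of its F value, and intervals are 95%. DESeq2 1.42.0 and other settings were tried. All 10 genes are described, with related genes that passed the test or had 0 counts in every mouse, S100b, S100a8 and S100a9, and the 3 genes nearest to each called gene. Other genes named (Anxa6, Anxa9, Anxa11, S100a1, S100a3, S100a5, S100a13, Fpr1, Fpr2, Plat, Plaur, Dysf, Capn1, Cacybp, Hltf, Sri, Myh9, Ccr2 and Alas2) were chosen after their values were seen. The genes and lists were chosen with earlier results of these data known. Anxa1, S100a4 and S100a11 had the lowest CPM, on 21 to 77 counts per mouse, and the largest SE against control (0.18, 0.21 and 0.18). How much of that SE comes from low counts and how much from differences between mice was not tested. Replicates are separate mice, and their small number limits precision for all genes.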

Additional observations from a re-analysis of the deposited data

How the results depend on the processing

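Of the 8 genes called in SAH against control, 5 were called in a fit of 3 groups, 4 at an adjusted p under 0.05, 3 without the mice of high choroid plexus level and 3 to 6 without 1 mouse. Without a filter 6 were called and with DESeq2 7. Against Sham mice 1 was called, against 3 with DESeq2, 0 at 0.05, 0 when fitted on the compared groups alone, 2 without the mice of high choroid plexus level and 0 to 1 without 1 mouse. Against Naive mice 2 were called, against 5 with DESeq2 and 1 to 4 without 1 mouse. The share of all genes called moved too, from 4.68% to 4.34%, 2.46%, 2.18%, 3.73% and 6.87% for those settings of SAH against control in the order given (2.05% to 7.25% without 1 mouse), from 0.720% to 2.00%, 0.324%, 0.0797% and 0.813% against Sham (0.0393% to 1.42%) and from 2.99% to 4.92% against Naive (0.714% to 4.53%). Of the other annexins and S100 genes 0 were called, against 1 (Anxa11) with DESeq2, with DESeq2 size factors and without a filter, and 0 to 1 without 1 mouse (1 without SAH mouse 2 or Sham mouse 7). The count of 2 partner genes held under every setting run except without SAH mouse 1, where it was 3 (Dysf added, adjusted p = 0.0503 in edgeR). The log2 difference of Anxa2 per S100a10 was 0.50 to 0.62 without 1 mouse and 0.64 without the mice of high choroid plexus level. Among the 10 genes the sign turned for small differences that were never called. Without 1 mouse these were -0.0228 to 0.0831 for Anxa5 against Sham, turned without Sham mouse 5, and, between Sham and Naive mice, -0.297 to 0.0119 for Anxa1 (Sham mouse 7), -0.0208 to 0.200 for Anxa3 (Naive mouse 10), -0.0972 to 0.148 for S100a6 (Sham mouse 7 and Naive mouse 10), -0.0516 to 0.186 for S100a11 (Naive mouse 8 and Sham mouse 6) and -0.00766 to 0.125 for S100a16 (Naive mouse 9). Without the mice of high choroid plexus level Anxa1 was at 0.0126 and S100a6 at -0.0960 in that comparison. Of other genes, against control, Plat was at -0.101 to 0.245 without 1 mouse and at -0.0982 without the mice of high choroid plexus level, and S100b at -0.0211 to 0.0303 without 1 mouse. The sign also turned without 1 mouse for Anxa6, Anxa9, Capn1, Cacybp, Hltf and Sri, and under another setting for Myh9 (log2 -0.0236). These genes were not called under any setting. The causes were not tested. No paired analysis was possible because the mouse numbers of the 3 groups do not overlap.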
